A study of Mus musculus with 14 samples.

Results

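Markers of oligodendrocytes, their precursors, microglia, blood vessels and red blood cells were followed in RNA from tubes of retrogradely labelled mouse neurons, as a measure of RNA from neighbouring cells. The set holds 38 of the 55401 genes in the count table, chosen by gene name: 9 genes of myelin, 3 transcription factors of the oligodendrocyte lineage, 3 genes of oligodendrocyte precursors, 11 of microglia, 6 of endothelium, 4 of mural cells and 2 of red blood cells. Each of the 14 tubes held 4 to 5 cells that expressed EGFP and lay in PiC of wild-type C57BL/6 mice. The cells had been labelled by 0.1 µl of AAVretro-EGFP, a virus taken up at axon ends, placed in MeA or PrL. Groups were male PiC-MeA (n = 3), female PiC-MeA (n = 3), male PiC-PrL (n = 4) and female PiC-PrL (n = 4), and all of them carried the virus. PiC, MeA and PrL are used as the labels give them, and no age is given. The labels do not say that tubes came from separate animals, so p-values measure only the spread between these samples, which may be technical.

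Oligodendrocytes wrap axons in myelin, whose main proteins are encoded by a small group of very abundant transcripts, and they arise from precursors that carry receptors for platelet-derived growth factor. Microglia are the resident macrophages of the brain and supply complement component C1q, lysosomal cathepsins and the receptors Csf1r and Cx3cr1. Capillaries are built of endothelial cells joined by tight junctions and are covered by mural cells, the pericytes and smooth muscle cells. Red blood cells carry hemoglobin transcripts from their precursor stage. Most of these transcripts are not typical of projection neurons. Some, such as a longer transcription unit of the Mbp gene and the glucose transporter Slc2a1, are also used outside the classes named here.

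Libraries held 6132985 to 15392217 counts. The 3 male PiC-MeA libraries stood apart, with 18964 to 20014 genes detected by 1 count or more, while the other 11 libraries had 12479 to 14908. They were also the shallowest, so their larger number of genes did not go with more counts. Mitochondrial transcripts took 4.796% to 15.3% of counts in male PiC-MeA, 3.29% to 3.95% in female PiC-MeA, 3.81% to 8.39% in male PiC-PrL and 4.57% to 12.2% in female PiC-PrL. The labelled cell type was seen in each tube: 8 of 10 neuron markers, Snap25 and Syt1 among them, had at least 10 counts in every library, and their summed level ran from 9926 to 16717 CPM (counts scaled to the library total). Tubb3 and Nefl, which neurons use widely, were listed at 0 in all 14 libraries, so a 0 in this table is not read as absence of a transcript. Astrocyte markers summed to 2248 ± 259 CPM in male PiC-MeA, 832 ± 72.8 in female PiC-MeA, 3081 ± 1235 in male PiC-PrL and 1917 ± 335 in female PiC-PrL (SD), and their part in the results below was not tested.

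Every tube contained RNA of the marker set. The 38 genes summed to 789 to 2273 CPM of a library's counts, and 15 of them had at least 1 count in all 14 libraries. Only 6 of them, Mbp, Cnp, C1qa, C1qb, Ctss and Aif1, reached 10 counts in all 14 libraries, and 4 genes, Gpr17, P2ry12, Trem2 and Cldn5, were listed at 0 in each one. In male PiC-MeA libraries 27, 31 and 28 of the 38 genes had at least 10 counts, against 18, 22 and 20 in female PiC-MeA, 17, 18, 23 and 17 in male PiC-PrL, and 22, 19, 21 and 21 in female PiC-PrL. The male PiC-MeA libraries thus held more of the markers than any other library, as they did of genes in general: 14157 to 15517 genes reached 10 counts there, against 7619 to 10819 elsewhere. With bulk RNA of pooled cells, fewer cells of a type and less RNA per cell cannot be told apart.

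**Figure D1:**
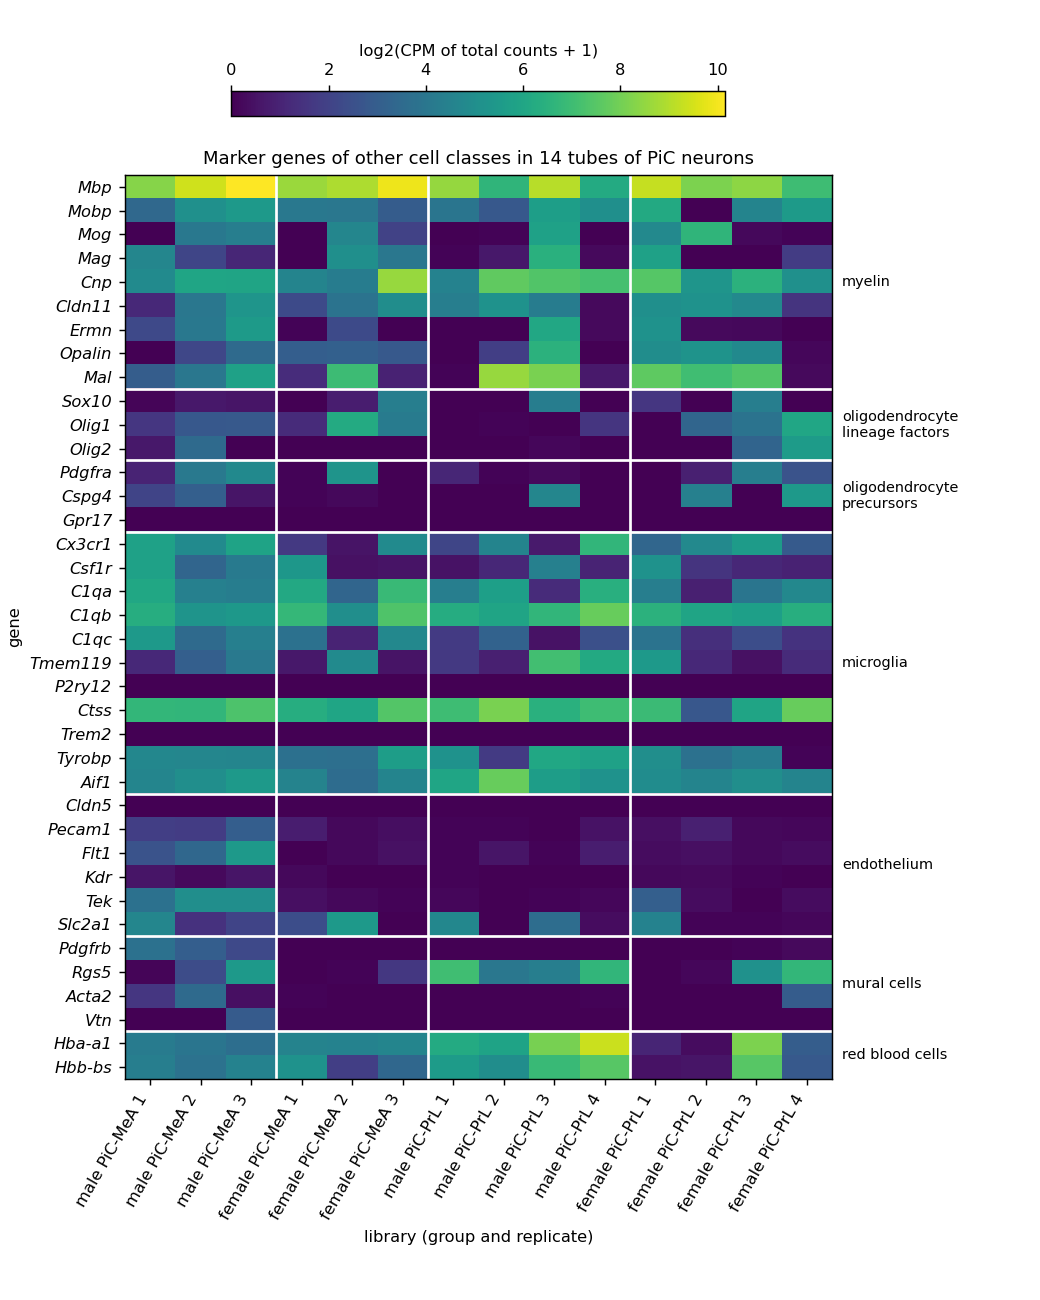
Levels of the 38 markers (rows, by class) in the 14 libraries (columns, male PiC-MeA first and female PiC-PrL last), as log2 of CPM + 1. Mbp, Cnp, Ctss and C1qb are present in every column, Tek, Flt1 and Pecam1 stand out in the male PiC-MeA columns, and the rows of Gpr17, P2ry12, Trem2 and Cldn5 are empty.

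With Mbp counted, myelin markers had the largest summed level of the 7 classes in each group mean. They were present in each tube, with an SD between tubes of 1 group of the same order as their mean. Summed over the 9 genes, they came to 887 ± 510 CPM in male PiC-MeA, 855 ± 490 in female PiC-MeA, 691 ± 484 in male PiC-PrL and 688 ± 422 in female PiC-PrL (SD). The lowest library held 210.4 CPM and the highest 1414 CPM, a 6.72-fold range, and the ranges of all 4 groups overlapped. The microglial sum was larger than the myelin sum in male PiC-MeA replicate 1, male PiC-PrL replicate 4 and female PiC-PrL replicate 4. The rank of myelin and the order of the groups rest on Mbp. Without Mbp the myelin sum ran from 74.6 to 271 CPM in male PiC-MeA and 51.4 to 448 in female PiC-MeA. In male PiC-PrL it then ran from 55.9 to 811 CPM and in female PiC-PrL from 83.5 to 626. It was then below the microglial sum in every male PiC-MeA library. By exon length the order of the myelin genes over all libraries was Mbp at 54.2, Mal at 35.0 and Cnp at 28.5 CPM per kilobase of exon, against 1332 for the neuronal gene Snap25.

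Mbp, which encodes myelin basic protein and lies at chr18:82475146-82585637 on the plus strand of mm10, had the most counts of the class over all libraries, although Mal or Cnp exceeded it in male PiC-PrL replicates 2 and 4. Its level was 321, 687 and 1143 CPM in male PiC-MeA, 400.2, 474 and 952 CPM in female PiC-MeA, 376, 97.9, 541 and 72.7 CPM in male PiC-PrL, and 612, 282, 343 and 127 CPM in female PiC-PrL. The values of the groups overlapped, with the 3 lowest libraries all among PiC-PrL. Over both sexes the fitted PiC-MeA minus PiC-PrL difference of Mbp was 0.90 ± 0.42 on the log2 scale (SE), with an adjusted p of 0.285 by the quasi-likelihood test of edgeR. When the fit also held a term for how many genes each library detected, the difference turned to -1.998 ± 1.63, and that term is nearly the same split as male PiC-MeA against the other libraries.

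Several other myelin genes varied widely between tubes. Cnp, a phosphodiesterase of myelin, had 301, 657 and 367 counts in male PiC-MeA, 269, 236 and 5322 in female PiC-MeA, 333, 2926, 2476 and 2051 in male PiC-PrL, and 2126, 557, 1229 and 506 in female PiC-PrL. Mal, a proteolipid of compact myelin, had 73, 159 and 336 counts in male PiC-MeA, 17, 1601 and 13 in female PiC-MeA, 1, 5465, 4039 and 9 in male PiC-PrL, and 2405, 1885, 2234 and 3 in female PiC-PrL. Within male PiC-PrL alone, Mal thus covered 1 to 5465 counts at nearly equal depth.

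Mag, an adhesion protein on the inner face of myelin, had 257, 35 and 7 counts in male PiC-MeA, 0, 414 and 213 in female PiC-MeA, 1, 8, 1258 and 3 in male PiC-PrL, and 660, 0, 0 and 39 in female PiC-PrL. Of its 3 highest libraries by CPM, 2 were also among the 3 highest of Mog, a protein of the outer myelin surface, and likewise 2 for Ermn, a cytoskeletal protein of myelinating cells, and 2 for Opalin, a membrane glycoprotein of oligodendrocytes. Male PiC-PrL replicate 3 was the highest library for Mag, Ermn and Opalin, with 1258, 974 and 1350 counts. Mobp, a small basic myelin protein, had counts in 13 libraries and Cldn11, the tight junction protein of myelin, in all 14, at medians of 239 and 250.5 counts.

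Genes of the same class outside the set also varied between tubes. Enpp2, the enzyme autotaxin, ran from 537 to 9180 counts and Car2, a carbonic anhydrase, from 1 to 4252.

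Transcription factors of the lineage and precursor genes were uneven between tubes. Sox10, which drives myelin genes, had counts in 8 libraries, with 265 in female PiC-MeA replicate 3, 272 in male PiC-PrL replicate 3 and 260 in female PiC-PrL replicate 3 as its highest. Olig1, a helix-loop-helix factor at chr16:91269772-91271933, had 22, 62 and 38 counts in male PiC-MeA, 16, 927 and 247 in female PiC-MeA, 0, 1, 0 and 29 in male PiC-PrL, and 0, 129, 182 and 973 in female PiC-PrL. The lowest male PiC-MeA library held 2.08 CPM, just above 1.99 CPM in the highest male PiC-PrL library, and the female PiC-PrL libraries spanned both levels. With TMM scaling, which aligns most genes between libraries, those 2 libraries were at 1.72 and 2.67 CPM, so the order turned.

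Olig2, the factor that specifies the lineage, was found in 5 libraries. It had 6, 111 and 0 counts in male PiC-MeA, 0 in each female PiC-MeA library, 0, 0, 2 and 0 in male PiC-PrL, and 0, 0, 114 and 714 in female PiC-PrL. Only 1 of the 3 highest libraries of Olig1 was shared with Olig2, although the genes lie close together on chromosome 16.

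Pdgfra, the receptor that marks precursors, had 11, 170 and 168 counts in male PiC-MeA, 1, 481 and 0 in female PiC-MeA, 17, 1, 3 and 0 in male PiC-PrL, and 0, 12, 256 and 77 in female PiC-PrL. Cspg4, the proteoglycan of precursors and pericytes, had 34, 77 and 3 counts in male PiC-MeA, 1, 2 and 0 in female PiC-MeA, 0, 0, 353 and 0 in male PiC-PrL, and 0, 296, 0 and 678 in female PiC-PrL. Each gene had at least 1 group in which a single library held nearly all its counts. Of the further precursor genes, Lhfpl3 had counts in 14 libraries (7 to 2397), Vcan, a matrix proteoglycan, in 11 and Neu4, a sialidase, in 9.

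Microglial and myelin transcripts had smaller ranges of summed level than the other 5 classes. Summed over the 11 genes, they came to 374 ± 93.8 CPM in male PiC-MeA, 361 ± 215 in female PiC-MeA, 533 ± 169 in male PiC-PrL and 280.3 ± 121 in female PiC-PrL (SD). Over libraries the sum ran from 134 to 699 CPM, a 5.22-fold range, and between 7 and 9 of the 11 genes reached 10 counts in each library. By exon length Ctss averaged 89.7, C1qb 79.2, Tyrobp 39.3, C1qa 35.5 and Aif1 29.2 CPM per kilobase of exon.

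Ctss, the lysosomal protease cathepsin S at chr3:95526786-95556403, was at 104, 103 and 158 CPM in male PiC-MeA, 78.5, 61.1 and 175 CPM in female PiC-MeA, 128, 276, 85.3 and 128 CPM in male PiC-PrL, and 119, 5.77, 60.5 and 223 CPM in female PiC-PrL. The groups overlapped, and female PiC-PrL replicate 2 was the lowest library. C1qb, a chain of the complement component C1q, had 80.02, 37.1 and 41.9 CPM in male PiC-MeA, 107, 31.3 and 163 CPM in female PiC-MeA, 76.5, 59.8, 103 and 219 CPM in male PiC-PrL, and 91.7, 60.6, 52.8 and 82.1 CPM in female PiC-PrL. C1qa, another chain, shared its 3 highest libraries with C1qb, while C1qc shared 1 of 3 with each, so the 3 chains of the same protein did not rank the tubes alike.

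Aif1, the calcium-binding protein used to stain microglia, was the only microglial gene whose sexes did not overlap within PiC-PrL. Its level was 62.1, 219, 49.1 and 35.6 CPM in male PiC-PrL, against 29.9, 22.7, 31.7 and 22.9 CPM in female PiC-PrL. In PiC-MeA it was 23.5, 31.2 and 43.2 CPM in males, against 22.1, 11.1 and 23.0 CPM in females, which did not overlap on this scale but did with TMM scaling. Male PiC-PrL replicate 2 was far above the rest.

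The receptors of microglia were uneven between tubes. Csf1r, the receptor that keeps microglia alive, had a count in every library but ran from 5 to 587, with 587, 94 and 106 in male PiC-MeA, 481, 5 and 6 in female PiC-MeA, 6, 17, 301 and 15 in male PiC-PrL, and 423, 27, 16 and 15 in female PiC-PrL. Cx3cr1, the fractalkine receptor, ran from 6 to 1473 counts. Tmem119, a membrane protein used to tell microglia from other macrophages, ran from 5 to 1991, and Tyrobp, the signalling adapter that pairs with Trem2, from 1 to 965. Outside the set, the Fc receptor chain Fcer1g had at least 10 counts in all 14 libraries, and the lysosomal membrane protein Laptm5 in 11.

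**Figure D2:**
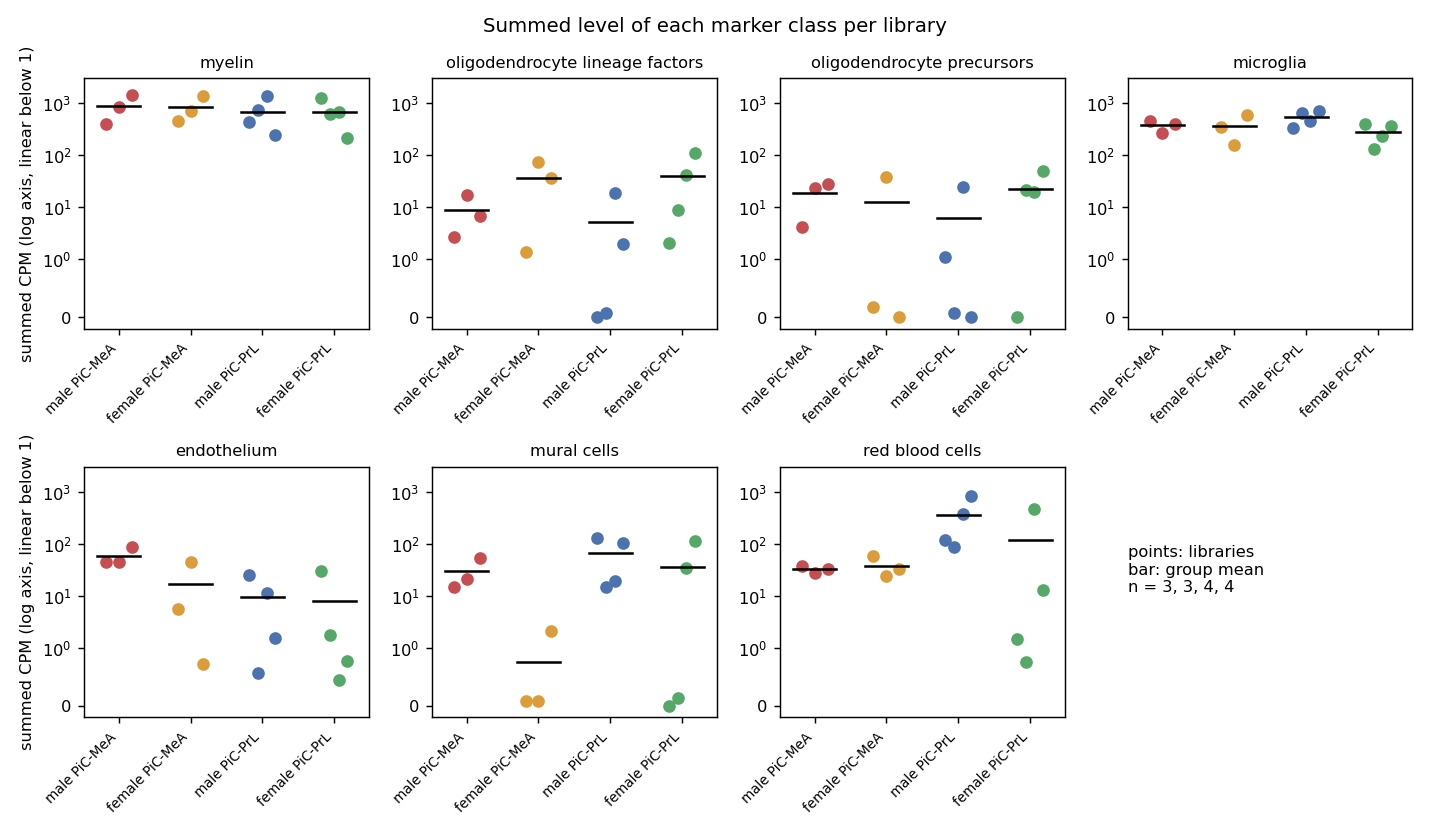
Summed CPM of each marker class in each library, on a log axis, by group with male PiC-MeA first. Each point is 1 library. Myelin and microglia lie at 134 CPM or more in every library, whereas the endothelial, mural and red blood cell sums span orders of magnitude within female PiC-PrL.

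The 6 endothelial markers of the set had their highest sums in the male PiC-MeA tubes, with 1 female PiC-MeA tube close behind. Summed over the 6 genes, they came to 59.2 ± 24.1 CPM in male PiC-MeA, 16.8 ± 23.7 in female PiC-MeA, 9.65 ± 11.4 in male PiC-PrL and 8.15 ± 14.3 in female PiC-PrL (SD). The lowest male PiC-MeA library held 45.3 CPM, just above 44.1 CPM in the highest of the rest, female PiC-MeA replicate 2. With TMM scaling male PiC-MeA replicates 1 and 2 held 37.5 and 38.1 CPM, below 42.7 CPM in that female library. Nearly all of that female sum was Slc2a1. Without female PiC-MeA replicate 2 that group averaged 3.17 CPM, and without male PiC-PrL replicate 1 male PiC-PrL averaged 4.51 CPM. Apart from replicate 1, the female PiC-PrL libraries held 1.74, 0.452 and 0.780 CPM.

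Tek, the angiopoietin receptor at chr4:94739289-94874976 on the plus strand, had 134, 330 and 195 counts in male PiC-MeA, 4, 2 and 1 in female PiC-MeA, 2, 0, 1 and 2 in male PiC-PrL, and 90, 4, 0 and 4 in female PiC-PrL. Flt1, a receptor for vascular endothelial growth factor at chr5:147561604-147726011 on the minus strand, had 54, 100 and 272 counts in male PiC-MeA, 0, 2 and 5 in female PiC-MeA, 1, 7, 1 and 11 in male PiC-PrL, and 3, 5, 2 and 4 in female PiC-PrL. Every male PiC-MeA library was above every other library for both genes, and Tek and Flt1 had the same 3 highest libraries by CPM. Pecam1, the adhesion molecule of endothelial junctions, followed with 29, 26 and 44 counts in male PiC-MeA, 9, 2 and 4 in female PiC-MeA, 1, 1, 0 and 6 in male PiC-PrL, and 4, 12, 2 and 2 in female PiC-PrL.

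Kdr, the main receptor for vascular endothelial growth factor, stayed at 5 counts or fewer in every library and did not pass the filter on low counts. Slc2a1, the glucose transporter of the blood-brain barrier, did not share the pattern of Tek and Flt1. It had 258, 18 and 20 counts in male PiC-MeA, 51, 560 and 0 in female PiC-MeA, 377, 0, 165 and 4 in male PiC-PrL, and 259, 1, 1 and 2 in female PiC-PrL. Its highest library lay in female PiC-MeA, and all 4 groups overlapped.

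Mural cell genes split in 2 ways. Pdgfrb, the receptor that holds pericytes to vessels, at chr18:61045150-61085061 on the plus strand, had 137, 75 and 23 counts in male PiC-MeA, 0 in each female PiC-MeA library, 0 in each male PiC-PrL library, and 0, 0, 1 and 3 in female PiC-PrL. Acta2, smooth muscle actin, had 22, 108 and 2 counts in male PiC-MeA, 1, 0 and 0 in female PiC-MeA, 0, 0, 0 and 1 in male PiC-PrL, and 0, 0, 0 and 104 in female PiC-PrL. Vtn, vitronectin, was found in 1 library, male PiC-MeA replicate 3, with 40 counts.

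Rgs5, a regulator of G-protein signalling that is high in pericytes, went another way. Its level was 0.0946, 4.18 and 42.9 CPM in male PiC-MeA, 0, 0.0778 and 2.10 CPM in female PiC-MeA, 132, 15.2, 19.4 and 102 CPM in male PiC-PrL, and 0, 0.139, 34.7 and 105 CPM in female PiC-PrL. All 4 male PiC-PrL libraries held at least 15.2 CPM, a level that 1 male PiC-MeA library and 2 female PiC-PrL libraries also exceeded. Without Rgs5 the mural sum was 14.4 CPM in male PiC-MeA and 0.0171 CPM in male PiC-PrL, against 30.1 and 67.3 CPM with it.

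Further vascular genes did not all follow Tek and Flt1. The 12 further endothelial genes summed to 77.8 ± 5.88 CPM in male PiC-MeA and 49.3 ± 41.8 in female PiC-MeA (SD). In male PiC-PrL they summed to 61.7 ± 74.3 CPM and in female PiC-PrL to 23.6 ± 35.7 (SD). Their highest library was male PiC-PrL replicate 4, at 161 CPM. Myh11, the myosin of smooth muscle, had 96, 21 and 455 counts in male PiC-MeA, 3, 1 and 4 in female PiC-MeA, 0, 5, 0 and 15 in male PiC-PrL, and 1, 5, 4 and 12 in female PiC-PrL, so male PiC-MeA lay above the rest. Itm2a, a membrane protein found in brain endothelium, reached 1024 counts in male PiC-PrL replicate 4, Slc16a1, a monocarboxylate transporter, had 1320 in the same library, and Esam, an endothelial adhesion molecule, had 323 in female PiC-MeA replicate 2. Dcn, the fibroblast matrix protein decorin, had 2381 of its counts in female PiC-PrL replicate 4, and Higd1b, a pericyte gene, had 633 in female PiC-PrL replicate 2 and none in 11 libraries.

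**Figure D3:**
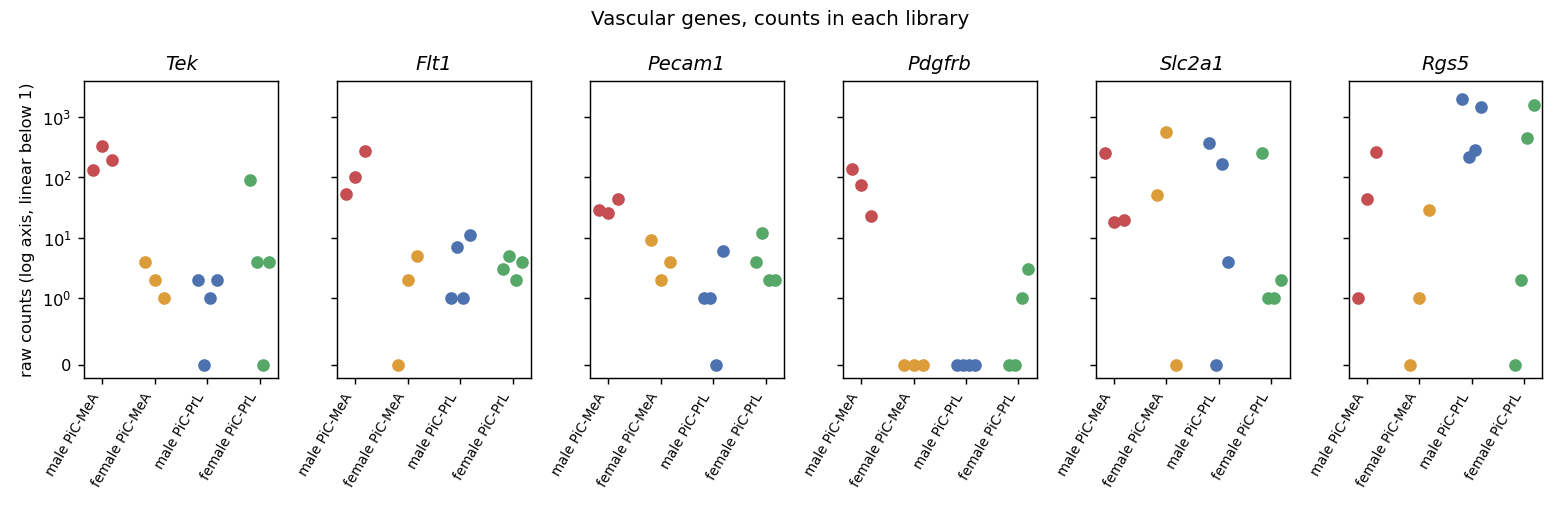
Raw counts of vascular markers in each library on a log axis that starts at 0, by group with male PiC-MeA first. Each point is 1 library. Tek, Flt1 and Pecam1 lie higher in the 3 male PiC-MeA libraries than in the other 11, whereas Slc2a1 and Rgs5 scatter over all groups.

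Vascular genes that were highest in the male PiC-MeA tubes differ in length, and those tubes held counts for more long genes in general. Tek spans 135688 bases, Flt1 164408 and Pecam1 96412, against 39912 for Pdgfrb, 14501 for Acta2 and 3234 for Vtn. Cx3cr1, which spans 168264 bases, and Mbp, which spans 110492, overlapped between groups. Of 5006 coding genes that span over 50 kb, 88.1% to 89.5% reached 10 counts in the male PiC-MeA libraries, against 49.8% to 68.2% in the other 11. Of 7741 coding genes under 10 kb, 29.1% to 33.1% did so in male PiC-MeA, against 17.9% to 25.8% in the others. The part that this difference between libraries has in the endothelial and mural counts was not tested.

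Sex was compared within PiC-MeA first, male minus female. None of the 32 markers that passed the filter had an adjusted p under 0.05 by edgeR, where 0% of all 14599 genes tested did. Pdgfrb passed that filter through male PiC-MeA alone, the only group with libraries at 10 counts. Tek, Flt1, Pecam1 and Acta2 also passed mainly through that group. They had libraries at 10 counts in 2 groups, and their highest counts outside male PiC-MeA were 90, 11, 12 and 104. The filter was the same in all 7 comparisons, so tests of these genes depend on the group where they were high. Their p-values below are therefore not taken as support for that group being higher. An unadjusted p under 0.05 was reached by 5 of the 32 markers, against 12.4% of all genes, DESeq2 called 3 against 5.32%, and limma voom called 4 against 12.1%.

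Pdgfrb averaged 7.95 CPM in male PiC-MeA, 33.8-fold the 3 counts per library that a 0 allows in female PiC-MeA, a fold that covers counting error only. Its adjusted p was 0.298 by edgeR and 0.000531 by limma voom. The log2 difference of Flt1 was 6.67 ± 2.35 (SE), with adjusted p-values of 0.298 by edgeR, 0.000411 by DESeq2 and 0.00226 by limma voom. For Tek it was 6.85 ± 2.61, with adjusted p-values of 0.315 by edgeR, 0.00268 by DESeq2 and 0.00258 by limma voom. With the number of detected genes in the fit the Tek difference turned to -0.64 ± 9.07, an SE larger than the difference itself. Male and female libraries did not overlap for 7 markers that were higher in males (Pdgfrb, Flt1, Tek, Acta2, Pecam1, Cspg4 and Aif1) and for Hba-a1, which was lower in males, where 18.9% and 6.88% of all genes separated in those directions. With TMM scaling, for which these shares of all genes do not hold, Aif1 overlapped, and the other 6 markers higher in males did not. The median log2 difference of the 32 markers was 0.13, beside 0.12 for all genes.

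Within PiC-PrL, male minus female, edgeR again called none of the 32 markers and 0% of all genes. Before adjustment, p was under 0.05 for 5 markers, against 14.3% of genes, DESeq2 called 1 against 6.97%, and limma voom 0 against 0.0548%. Olig2 had a log2 difference of -8.32 ± 3.17 and Acta2 of -5.89 ± 2.497 (SE), with adjusted p-values of 0.283 and 0.293 by edgeR. Olig2 rests on 2 female PiC-PrL libraries and Acta2 on 1, and the sexes overlapped for both. Aif1 had a log2 difference of 1.86 ± 0.85, with an adjusted p of 0.327 by edgeR and 0.0329 by DESeq2, and without male PiC-PrL replicate 2 its log2 difference was 0.89. It was the only marker whose sexes did not overlap there, where 1.27% of genes separated with males higher and 2.27% with males lower. The median of the 32 markers was 0.19, beside -0.02 for all genes.

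Averaged over both projections, male minus female, edgeR called none of the markers and 0.0137% of all genes. Without adjustment over genes, p was under 0.05 for 2 markers, against 10.7% of genes, DESeq2 called 1 against 4.43%, and limma voom 0 against 0.0274%. The log2 difference was 3.63 ± 1.37 for Flt1, -3.95 ± 1.71 for Olig1 and 1.27 ± 0.64 for Aif1 (SE), with adjusted p-values of 0.342, 0.425 and 0.503 by edgeR. With the number of detected genes in the fit Olig1 turned to 0.28 ± 3.26. The median of the markers was 0.35, beside 0.04 for all genes.

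In males, PiC-MeA minus PiC-PrL, edgeR called none of the 32 markers and 0.603% of all genes. An unadjusted p under 0.05 was found for 7 markers, against 22.2% of genes, DESeq2 called 6 against 13.9%, and limma voom 6 against 17.9%. The male PiC-MeA mean of Pdgfrb was 38.9-fold the level of 3 counts per male PiC-PrL library, with an adjusted p of 0.0790 by edgeR. That fold, too, covers counting error only. The log2 difference of Tek was 7.70 ± 2.37 and that of Hba-a1 was -4.67 ± 1.69 (SE), with adjusted p-values of 0.0824 and 0.107 by edgeR. With the number of detected genes in the fit both turned, Tek to -1.67 ± 12.04 and Hba-a1 to 1.36 ± 9.74. Libraries did not overlap for 7 markers higher in PiC-MeA (Pdgfrb, Tek, Flt1, Acta2, Pecam1, C1qc and Olig1), where 22% of all genes did so, and for Hba-a1 and Hbb-bs, lower in PiC-MeA, where 3.91% did so. With TMM scaling C1qc and Olig1 overlapped, and C1qb and Aif1 were lower in PiC-MeA without overlap. The shares of all genes given here are for CPM without TMM scaling. The median of the markers was -0.39, beside 0.16 for all genes.

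In females, PiC-MeA minus PiC-PrL, edgeR called none of the 32 markers and 0% of all genes. Before adjustment over genes, p was under 0.05 for 2 markers, against 11.1% of genes, DESeq2 called 1 against 4.3%, and limma voom 0 against 0.212%. Olig2 was at least 58.4-fold lower in female PiC-MeA, taken at 3 counts per library, with an adjusted p of 0.403 by edgeR, although 2 of the 4 female PiC-PrL libraries were listed at 0 too. The log2 difference was -5.79 ± 2.61 for Rgs5 and -7.76 ± 3.77 for Cspg4 (SE), with adjusted p-values of 0.434 and 0.461 by edgeR. No marker separated the 2 groups of females in CPM, where 5.49% of genes did so with PiC-MeA higher and 2.88% with PiC-MeA lower. With TMM scaling only Aif1 did, lower in PiC-MeA, and those shares are not on that scale. The vascular receptors that set male PiC-MeA apart were at 5 counts or fewer in female PiC-MeA, and Pecam1 at 9 or fewer. The median of the markers was -0.74, beside -0.06 for all genes.

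Averaged over both sexes, PiC-MeA minus PiC-PrL, edgeR called none of the markers and 0.822% of all genes. The unadjusted p was under 0.05 for 3 markers, against 17.4% of genes, DESeq2 called 3 against 10.2%, and limma voom 1 against 8.75%. Hba-a1 had a log2 difference of -3.20 ± 1.11 and Rgs5 of -4.13 ± 1.69 (SE), with adjusted p-values of 0.117 and 0.199 by edgeR. Without female PiC-PrL replicate 3 the log2 difference of Hba-a1 was -1.03, and with the number of detected genes in the fit it was -0.02 ± 4.94. The median of the markers was -0.65, beside 0.07 for all genes. These comparisons share libraries and are not separate evidence.

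For the difference of the sex differences, PiC-MeA minus PiC-PrL, edgeR called none of the markers and 0% of all genes. An edgeR p under 0.05 before adjustment was found for 5 markers, against 15.6% of genes, DESeq2 called 3 against 7.92%, and limma voom 2 against 4.99%. Pdgfrb, Tek and Olig2 had the smallest p, each with an adjusted p of 0.152 by edgeR. For Tek the log2 value was 11.09 ± 3.31 (SE), and without female PiC-PrL replicate 1 it was 8.04. With the number of detected genes in the fit it was 1.53 ± 11.96, and Olig2 turned to -0.18 ± 1.67. The median of the markers was 0.76, beside 0.31 for all genes. Further genes of the same classes were tested as well, 12 of myelin, 5 of precursors, 13 of microglia and macrophages, 8 of endothelium, 5 of mural cells and fibroblasts and 2 of red blood cells, and none passed in any of the 7 comparisons by edgeR.

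Hemoglobin transcripts, which red cell precursors make in bulk, were highest in male PiC-PrL tubes and 1 female PiC-PrL tube for the alpha genes, while for the beta genes 1 female PiC-MeA tube lay level with the lowest male PiC-PrL tube. Mouse alpha and beta hemoglobin are each encoded by a pair of nearly identical adult genes, so reads can be placed on either copy. Over the 426 coding bases of Hba-a1 and Hba-a2, 1 base differed (C381T, counted from the first coding base, Hba-a1 first), and over the 441 coding bases of Hbb-bs and Hbb-bt, 1 base differed (C417T, Hbb-bs first). The stretches around those bases are shown because they hold the only difference between the copies within coding bases. They are coding bases 336 to 401 of the alpha genes and 372 to 437 of the beta genes in the GENCODE M21 transcripts (mm10), with the differing base in capitals.
Hba-a1: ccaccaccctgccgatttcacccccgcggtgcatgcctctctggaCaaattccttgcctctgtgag
Hba-a2: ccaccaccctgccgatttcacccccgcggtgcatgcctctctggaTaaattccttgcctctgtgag
Hbb-bs: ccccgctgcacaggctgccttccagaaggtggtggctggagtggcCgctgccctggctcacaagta
Hbb-bt: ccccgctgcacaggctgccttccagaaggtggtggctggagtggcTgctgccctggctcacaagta
The alpha genes lie at chr11:32283511-32284465 (Hba-a1) and chr11:32296489-32297298 (Hba-a2) on the plus strand, and the beta genes at chr7:103826534-103828096 (Hbb-bs) and chr7:103812524-103813996 (Hbb-bt) on the minus strand. The labels and notes used here do not say how reads shared by both copies were counted, so the level of a single copy is uncertain and the sum of a pair is the safer value.

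Hba-a1 was at 17.6, 14.6 and 11.9 CPM in male PiC-MeA, 22.1, 22.0 and 23.7 CPM in female PiC-MeA, 73.8, 57.9, 269 and 644 CPM in male PiC-PrL, and 1.08, 0.278, 287 and 7.08 CPM in female PiC-PrL. Hbb-bs was at 19.5, 13.4 and 21.8 CPM in male PiC-MeA, 35.6, 2.65 and 9.41 CPM in female PiC-MeA, 46.6, 30.3, 116 and 181 CPM in male PiC-PrL, and 0.414, 0.487, 183 and 6.17 CPM in female PiC-PrL. All 4 male PiC-PrL libraries lay above all 3 male PiC-MeA libraries for both genes. The 3 highest libraries were the same for Hba-a1 and Hbb-bs, and 4 of their 5 highest.

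With both copies together, alpha hemoglobin separated the same 5 libraries from the rest and beta hemoglobin did not. Hba-a1 and Hba-a2 summed to 21.8, 22.8 and 19.7 CPM in male PiC-MeA, 36.2, 24.4 and 27.1 in female PiC-MeA, 90.6, 73.4, 319 and 736 in male PiC-PrL, and 2.82, 5.29, 362 and 12.7 in female PiC-PrL. Hbb-bs and Hbb-bt summed to 22.6, 19.4 and 24.0 CPM in male PiC-MeA, 38.6, 2.96 and 13.8 in female PiC-MeA, 47.8, 37.5, 132 and 181 in male PiC-PrL, and 0.414, 0.487, 194 and 6.17 in female PiC-PrL, so female PiC-MeA replicate 1 lay above male PiC-PrL replicate 2. The share of Hba-a1 in the pair was 87.4% in male PiC-PrL replicate 4 (95% Wilson interval 86.8 to 88.0) and 5.26% in female PiC-PrL replicate 2 (2.07 to 12.8), intervals that cover counting error only. The red blood cell sum of the set was 32.9 ± 4.61 CPM in male PiC-MeA, 38.5 ± 17.2 in female PiC-MeA, 355 ± 340.4 in male PiC-PrL and 121 ± 233 in female PiC-PrL (SD). Without replicate 3 the female PiC-PrL mean was 5.17 CPM, and without replicate 4 the male PiC-PrL mean was 198 CPM.

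Other red cell genes had few or no counts beside hemoglobin. Slc4a1, the anion exchanger of the red cell membrane, had 8 counts in all, and Alas2, the first enzyme of heme synthesis in red cells, was listed at 0. Whether the hemoglobin transcripts came from red blood cells was not tested. The 2 libraries with most hemoglobin had low sums of the 6 endothelial markers, as did several libraries with less hemoglobin. Female PiC-PrL replicate 3 had 470.3 CPM of hemoglobin and 0.452 CPM of endothelial markers, and male PiC-PrL replicate 4 had 825 and 1.58 CPM. The 12 further endothelial genes summed to 14.1 and 161 CPM in these libraries, and Itm2a and Slc16a1 made up nearly all of the second sum. Mural markers summed to 34.8 CPM in female PiC-PrL replicate 3 and 102 CPM in male PiC-PrL replicate 4, nearly all of it Rgs5. Male PiC-PrL replicate 3, next in hemoglobin at 385 CPM, held 11.4 CPM of the 6 endothelial markers. Low endothelial sums were not particular to tubes with much hemoglobin. Female PiC-PrL replicate 2, lowest in hemoglobin at 0.765 CPM, held 1.74 CPM of endothelial markers, and replicate 4 had 13.3 and 0.780 CPM. Replicate 1 of that group, at 1.49 CPM of hemoglobin, held 29.6 CPM.

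Promoters of Hba-a1 and Hbb-bs are shown because these genes had the same 3 highest libraries. The stretches run from 130 bases before to 20 bases after the annotated start in RefSeq (GRCm38.p6), at chr11:32283542-32283691 on the plus strand and chr7:103827909-103828058 on the minus strand. Capitals mark the TATA box letters TATAA, the CAAT box letters CCAAT and the letters CACCC, a motif of globin promoters. Each was searched on both strands, and the matches do not overlap.
Hba-a1: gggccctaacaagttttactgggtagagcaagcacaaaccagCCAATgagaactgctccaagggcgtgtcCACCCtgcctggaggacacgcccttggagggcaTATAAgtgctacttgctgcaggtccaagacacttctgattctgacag
Hbb-bs: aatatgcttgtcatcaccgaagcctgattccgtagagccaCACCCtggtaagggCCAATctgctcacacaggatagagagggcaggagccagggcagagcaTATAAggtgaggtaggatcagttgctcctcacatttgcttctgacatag
Each promoter held each of the 3 motifs once. Of 32851 RefSeq promoters cut to the same length, 13.8% held the TATA box letters, 24.2% the CAAT box, 37.0% CACCC and 1.07% held all 3.

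**Figure D4:**
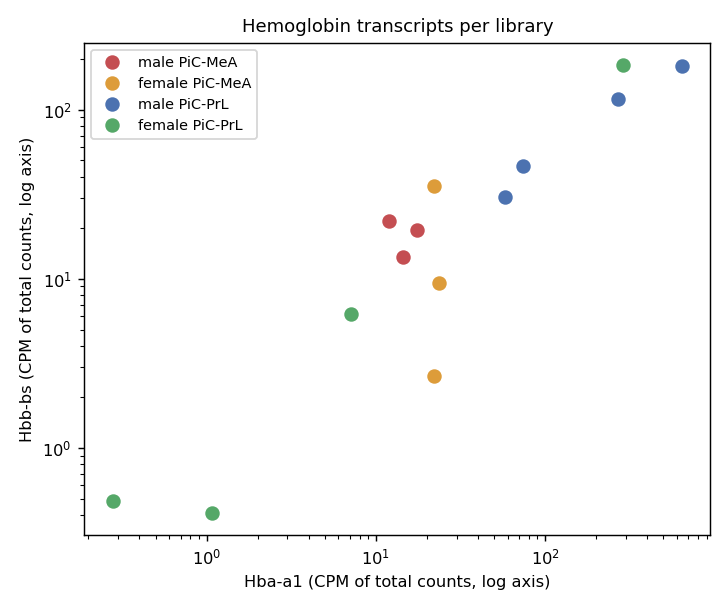
Hbb-bs against Hba-a1 in CPM for each of the 14 libraries, on log axes, coloured by group with male PiC-MeA first. The 4 male PiC-PrL libraries and 1 female PiC-PrL library lie at the upper right, with female PiC-MeA replicate 1 level with the lowest of them for Hbb-bs, and 2 other female PiC-PrL libraries lie lowest, under 2 CPM for both genes.

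The 4 markers listed at 0 in every library are defining genes of their classes. P2ry12, a nucleotide receptor of resting microglia, lies at chr3:59216272-59262871 on the minus strand, wholly within the span of Med12l. Gpr17, a receptor of differentiating precursors, lies at chr18:31942997-31949636 on the minus strand, wholly within the span of Lims2 in GENCODE M21. Trem2, a lipid-sensing receptor of microglia at chr17:48346401-48354147, and Cldn5, the tight junction protein of brain endothelium at chr16:18776847-18778262, overlap no other gene of that release.

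Coding genes that lie inside another gene were listed at 0 far more often than others. Of 1478 coding genes with all exon bases inside the span of another gene, 1287 (87.1%) had no count in any library, against 1851 of 14031 (13.2%) with no exon base there. P2ry13 and Gpr34, 2 further microglial genes listed at 0, lie within Med12l and Cask, and the neuronal genes Nefl and Tubb3 also lie within other genes. A 0 of such a gene is not read here as absence of its transcript. For Trem2 and Cldn5 each 0 allows up to 3 counts, which is 0.195 to 0.489 CPM by library, counting error only. Tyrobp, the partner of Trem2, reached 10 counts in 13 libraries.

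**Figure D5:**
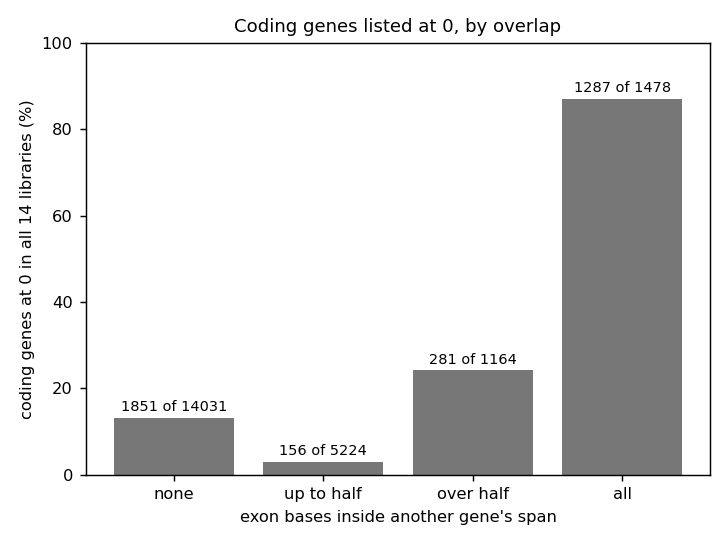
Percentage of coding genes with no count in any library, by the share of their exon bases that lies inside the span of another gene in GENCODE M21. Bars stand for 14031 genes with none, 5224 with up to 50%, 1164 with over 50% and 1478 with all exon bases inside, and the last bar reaches 87.1%.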

How the data were processed

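The authors deposited raw read counts per gene, in 1 column per library, without pooling or normalization. Per the submitters' processing notes, reads were handled with Trimmomatic 0.39, HISAT2 2.2.1, SAMtools and featureCounts 2.0.1 on mm10, and, per the labels, libraries were made by SMART-Seq2 from polyA RNA. Neither the labels nor those notes name the annotation release, a strand setting or the treatment of reads shared by genes. Of the table's 55401 identifiers, 55141 matched GENCODE M21 once version numbers were left out, which gave positions and exon lengths.

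Levels are CPM, counts scaled to each library's total. Counts were fitted across the whole table with the robust quasi-likelihood test of edgeR 4.0.16 in R 4.3.3, after filterByExpr (minimum count 10, minimum total 15, 14599 genes) and TMM scaling, with 1 mean per group over 14 libraries. Fold changes are log2 values with SE, p-values are Benjamini-Hochberg adjusted over all genes tested, and the threshold is 0.05. There were 7 comparisons. DESeq2 1.42.0 and limma 3.58.1 were alternatives, beside other scalings, filters, a covariate, a replicate block and leaving out libraries. The fit was tested on simulated data. No batch or date is given in the labels, so within-batch values could not be had.

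The markers, the classes and the further lists were chosen with earlier results of these data known. Named with a fold change were the 3 markers with the smallest p in each comparison. Named with every library were these, the marker of each class with the largest summed count per exon length and that with counts in most libraries. Up to 3 further genes per class were named by summed count, and some of these are not reported here. Other markers with values were named to account for all of them and were chosen after their values were seen. Floors for a count of 0 are 3 counts per library. Folds against such a floor cover counting error only, not the spread between tubes.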

Additional observations from a re-analysis of the deposited data

Results flagged for a closer look

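Of 42 sets of 4 libraries checked, 13 had a highest value far from the other 3 by Dixon's criterion, which chance meets in about 1 set in 20 for independent values with a normal spread. These sets overlap, since class sums hold their own members, and many values are near 0, so the rate for them is not known. Within male PiC-PrL these were the summed lineage factors at 18.7 CPM and precursor genes at 24.3 CPM, with Cspg4 at 24.1 CPM and Olig2 at 0.136 CPM, all in replicate 3. Olig1 at 1.99 CPM and Acta2 at 0.0685 CPM stood out in replicate 4, and Aif1 at 219 CPM in replicate 2. The Olig2 and Acta2 values are 2 counts and 1 count.

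Within female PiC-PrL, replicate 1 stood out for the summed endothelial markers at 29.6 CPM, Slc2a1 at 21.4 CPM and Tek at 7.45 CPM. Replicate 3 stood out for the summed hemoglobins at 470.3 CPM and Hba-a1 at 287 CPM, and replicate 4 for Acta2 at 6.76 CPM. Different libraries of the group were thus the highest for endothelial, red blood cell and smooth muscle transcripts.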

How the results depend on the processing

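The count of markers called was 0 in each of the 7 comparisons with edgeR, and it stayed 0 with DESeq2 size factors, the stricter filter, the fit without the robust option and the covariate for detected genes. Leaving out any of the 14 libraries gave 0 to 0 markers in each comparison. Without the filter, 1 marker passed for the projection in males (0.57% of all genes) and 3 for the average projection (1.62%), and with only the compared groups in the fit, 3 passed for the projection in males (7.55%). With the share of all genes in brackets, DESeq2 called 3 markers for sex in PiC-MeA (5.32%), 1 for sex in PiC-PrL (6.97%) and 1 for the average sex difference (4.43%). It called 6 for the projection in males (13.9%), 1 in females (4.3%), 3 for the average projection (10.2%) and 3 for the difference of the sex differences (7.92%). Limma voom called 4 for sex in PiC-MeA (12.1%), 6 for the projection in males (17.9%), 1 for the average projection (8.75%) and 2 for the difference of the sex differences (4.99%). The cause was not tested.

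With a covariate for how many genes each library detects, 6 fitted differences reversed: Tek in sex within PiC-MeA to -0.64 and in the projection in males to -1.67, Hba-a1 in the projection in males to 1.36, Mbp in the average projection to -1.998, Olig1 in the average sex difference to 0.28, and Olig2 in the difference of the sex differences to -0.18. That number is nearly the same split as male PiC-MeA against the rest. Of 453 fitted values of named markers under the alternatives, 421 kept direction and side of the threshold and 26 passed it. Same-numbered libraries of different groups had residual correlations of -0.0388 to 0.0407 over 19 pairs. With 4 to 5 cells per tube, such values cannot exclude a shared animal, batch or day. The fit with the replicate block called 0 markers in each comparison. Male PiC-MeA libraries were the shallowest, so low counts there have the widest floors. Whether groups overlap was also read with TMM scaling, chosen after seeing the data: the markers higher in PiC-MeA males than in PiC-PrL males were then 5 instead of 7, and those lower 4 instead of 2. No share of all genes is given on that scale, so these counts are not read as a result about the markers.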
